A study of Mus musculus with 8 samples.

Results

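Oxygen sensors and hypoxia-response genes were followed in B lymphocytes of mice with a knock-out of Myc, Max or both. The 10 genes were Hif1a and Arnt, the subunits of the hypoxia-inducible factor (HIF), Egln1, Egln2, Egln3 and Hif1an, whose oxygen-dependent hydroxylases mark HIF, Vhl, whose product binds marked HIF, and Bnip3, Ankrd37 and Kdm3a, which are HIF targets outside glycolysis. They were listed by function, but they were selected with earlier results of these libraries in view, so their changes between groups are given as a description and without a p-value. All 10 were among the 15681 genes of the deposited table, and all 10 were among the 12441 that were tested after a filter on low levels.

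The study asked how Myc and Max, which bind DNA as a dimer, work together as B cells differentiate. The cells were mature B cells, sorted from spleen at an age of 8 to 10 weeks, and their transcripts were counted by RNA sequencing. Every culture, the control included, was activated for 72 h with lipopolysaccharide at 20 µg/ml and interleukin 4 at 20 ng/ml. The 4 groups, each of 2 libraries, were heterozygous controls (control), Myc knock-out (Myc_KO), Max knock-out (Max_KO) and double knock-out of both genes (double_KO). Which alleles the heterozygous controls carried, and which promoter drove any recombinase, is not given in the sources used here. Nothing in the labels ties the libraries of a group to different mice, so p-values below reflect the spread between these libraries and may be technical.

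HIF is a dimer of an oxygen-labile alpha subunit and a stable beta subunit. When oxygen is present, the prolyl hydroxylases encoded by Egln1, Egln2 and Egln3 mark the alpha subunit, VHL binds the marked protein, and a ubiquitin ligase sends it to the proteasome. The asparaginyl hydroxylase encoded by Hif1an blocks the coactivator contact of what remains. HIF that escapes binds short hypoxia response elements, and Egln1 and Egln3 are themselves among its targets, which closes a feedback loop. Most of this control acts on protein, and the libraries measured only transcripts.

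Promoters are shown because Myc and Max dimers bind the E-box CACGTG, while HIF binds elements with the core ACGTG or GCGTG. The windows run from 250 bases before to 50 after a RefSeq start on GRCm38.p6, written 5′ to 3′ on the gene's strand, and capitals mark these 3 motifs on either strand. ACGTG lies inside CACGTG, so that every E-box also counts as a core. Printed are the 4 genes whose mean level was lower by the widest margins in Myc_KO, then Kdm3a, then Hif1a, whose level went the other way.
Egln3, chr12:54203825-54204124, minus strand: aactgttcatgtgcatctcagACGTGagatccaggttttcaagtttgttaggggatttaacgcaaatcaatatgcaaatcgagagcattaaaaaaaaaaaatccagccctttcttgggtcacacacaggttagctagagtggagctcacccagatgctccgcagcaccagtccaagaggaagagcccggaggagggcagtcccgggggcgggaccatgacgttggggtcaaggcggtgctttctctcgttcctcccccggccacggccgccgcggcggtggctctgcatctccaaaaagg
Bnip3, chr7:138909457-138909756, minus strand: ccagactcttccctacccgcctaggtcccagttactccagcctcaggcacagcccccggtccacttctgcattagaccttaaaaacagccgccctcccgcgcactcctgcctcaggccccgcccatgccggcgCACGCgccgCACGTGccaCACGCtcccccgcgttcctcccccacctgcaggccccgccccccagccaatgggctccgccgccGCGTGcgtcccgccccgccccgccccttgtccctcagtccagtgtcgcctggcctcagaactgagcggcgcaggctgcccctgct
Ankrd37, chr8:45999801-46000100, minus strand: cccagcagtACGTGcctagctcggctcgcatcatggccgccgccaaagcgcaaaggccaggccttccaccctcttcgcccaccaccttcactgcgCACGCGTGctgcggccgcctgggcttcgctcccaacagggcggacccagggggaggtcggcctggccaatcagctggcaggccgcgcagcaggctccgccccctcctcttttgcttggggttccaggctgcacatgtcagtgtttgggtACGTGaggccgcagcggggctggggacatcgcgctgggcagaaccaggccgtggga
Egln1, chr8:124949205-124949504, minus strand: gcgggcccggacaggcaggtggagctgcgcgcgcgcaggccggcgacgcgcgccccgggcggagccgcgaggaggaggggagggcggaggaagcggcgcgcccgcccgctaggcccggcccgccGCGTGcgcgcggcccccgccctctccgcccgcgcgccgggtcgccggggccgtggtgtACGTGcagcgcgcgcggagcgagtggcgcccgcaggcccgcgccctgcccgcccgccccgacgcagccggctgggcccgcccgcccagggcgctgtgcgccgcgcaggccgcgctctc
Kdm3a, chr6:71632868-71633167, minus strand: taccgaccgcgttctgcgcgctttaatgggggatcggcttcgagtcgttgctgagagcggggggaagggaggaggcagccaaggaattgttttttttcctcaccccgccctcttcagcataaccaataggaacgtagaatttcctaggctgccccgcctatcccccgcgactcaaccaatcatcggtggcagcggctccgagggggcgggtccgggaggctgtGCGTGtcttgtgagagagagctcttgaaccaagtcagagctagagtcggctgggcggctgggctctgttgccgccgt
Hif1a, chr12:73907617-73907916, plus strand: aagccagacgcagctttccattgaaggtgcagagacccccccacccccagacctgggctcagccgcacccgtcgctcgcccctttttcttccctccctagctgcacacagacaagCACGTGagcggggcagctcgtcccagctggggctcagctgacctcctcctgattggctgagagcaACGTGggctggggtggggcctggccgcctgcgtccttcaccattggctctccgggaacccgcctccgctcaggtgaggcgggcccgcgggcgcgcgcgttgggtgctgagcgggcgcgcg
RefSeq gave 13 promoters for the 10 genes. Positions are those of a motif's first base before the start, on the gene's strand. The E-box was found for 3 genes, at -135 in Hif1a, at -4 in Egln2 and at -108 in Bnip3. A core, ACGTG or GCGTG, was found for 8 of the 10 genes, the exceptions being Hif1an and Vhl. Over all 32851 RefSeq promoters of the same length, 7.15% held CACGTG, 19.6% held ACGTG, 32.4% held GCGTG and 43.8% held either core. Egln3 held 1 core at -229, and Kdm3a held 1 at -27 in the promoter shown. Bnip3 and Ankrd37 held several, in Bnip3 at -117, -108, -107, -99 and -35 and in Ankrd37 at -241, -155, -152 and -6. The mean level of Hif1a was higher in Myc_KO than in the control, that of Bnip3 lower and that of Egln2 within 2 standard errors of the control, and all 3 held the E-box. A match describes letters in a window and is no evidence of binding.

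Libraries held 14.88 to 17.91 M estimated reads. Levels are in RPM, that is estimated reads scaled to an effective library size. The error beside a mean level is the SD of the 2 libraries. For 2 libraries, called here double_KO replicate 1 and Myc_KO replicate 2 after their titles, the description names the other of these genotypes. Max stood at 55.0 and 54.5 RPM in the control, 70.4 and 59.8 in Myc_KO, 16.4 and 15.5 in Max_KO and 28.6 and 31.2 in double_KO, so its level fits the titles and goes against the descriptions. Myc stood at 111 and 116 RPM in the control, 48.3 and 55.7 in Myc_KO, 192 and 176 in Max_KO and 38.7 and 55.3 in double_KO. Transcripts of a targeted gene thus remained in every knock-out library, and Max was higher in both double_KO libraries than in both Max_KO libraries. Which exons were deleted is not given in the sources used here. Mitochondrial transcripts took 2.21% to 2.96% of the estimated reads of knock-out libraries against 5.69% and 4.93% in the controls, and their part in the results below was not tested. The 8 B cell markers summed to 4993 and 4917 RPM in the controls and to 6167 to 7524 RPM in knock-out libraries, with Ms4a1 at 448 and 399 RPM against 933 to 1377 and Pax5 at 382 and 375 RPM against 979 to 1406. The 8 T cell markers summed to 40.1 and 43.9 RPM in the controls and to 74.1 to 152 RPM in knock-out libraries. Most of that sum was Lck, Cd8a was at 0.996 and 1.33 RPM against 6.91 to 20.9, and the defining Cd3d and Cd3e were at 0 to 0.436 RPM against 0.559 to 3.33. Of the 5 NK cell markers, 4 were in the table, and they summed to 3.17 and 1.46 RPM in the controls and to 14.5 to 75.9 RPM in knock-out libraries, mostly Gzma. Ncr1 was at 0 in the controls and reached at most 0.849 RPM. The 6 of 8 myeloid markers in the table summed to 17.9 and 19.2 RPM in the controls and to 16.4 to 33.6 RPM in knock-out libraries, where Adgre1 was higher, at 5.43 to 27.1 RPM against 0.809 and 1.76, and Cd68 lower, at 3.2 to 6.32 RPM against 12.01 and 10.7. The 6 plasma cell markers summed to 1259 and 1206 RPM in the controls and to 574 to 1101 RPM in knock-out libraries. Xbp1, the largest part of the control sum, was at 793 and 680.5 RPM against 225 to 431. The defining Sdc1 and Prdm1 did not follow the sum in every group. Sdc1 was at 5.98 and 5.94 RPM in the controls, 8.23 and 14.9 in Myc_KO, 2.94 and 3.02 in Max_KO, and 8.83 and 16.5 in double_KO. Mean Prdm1 was 39.1 RPM in the control, 56.6 in Myc_KO, 26.8 in Max_KO and 51.1 in double_KO. The 3 of 4 dendritic cell markers in the table, mostly Flt3, summed to 165 and 193 RPM against 75.2 to 117. Of erythroid and platelet markers 1 each was in the table, Epor at up to 0.667 RPM and Itga2b at up to 2.37 RPM. The part of these other cells in the results below was not tested. In bulk RNA, fewer cells that express a gene and less RNA of it per cell cannot be told apart.

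**Figure D1:**
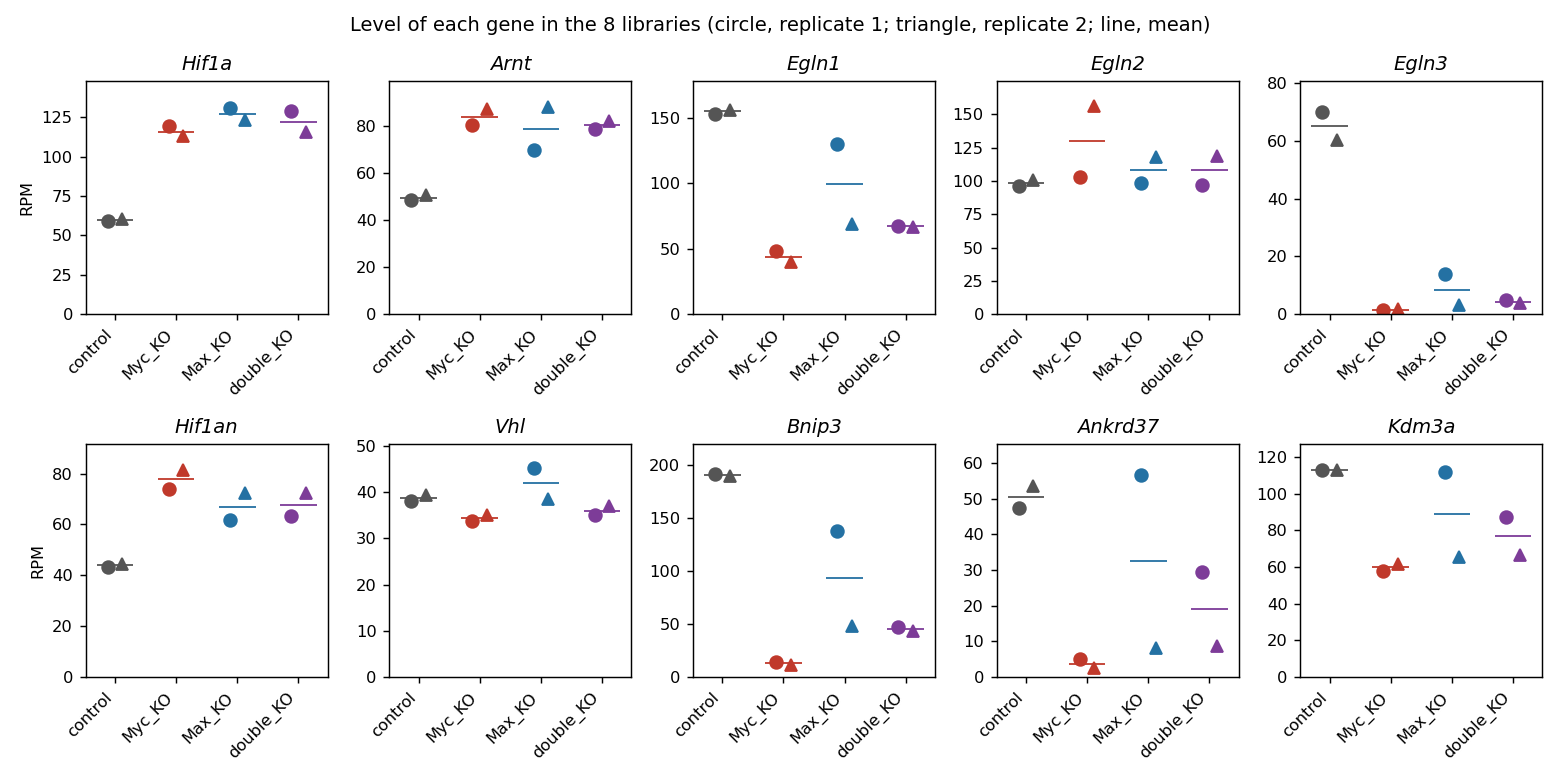
Level of the 10 genes in RPM (vertical axes, each starting at 0) in the 4 groups (horizontal axes); circles are replicate 1, triangles replicate 2 and lines group means. Hif1a, Arnt and Hif1an lie above the controls in all 6 knock-out libraries, while Egln3, Bnip3 and Egln1 lie below them in all 6.

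The genes did not move as one block. Against the control, the HIF subunits and the asparaginyl hydroxylase Hif1an were higher in every knock-out library, Egln2 and Vhl had mean changes within 2 standard errors of 0, and Egln1, Egln3 and the HIF targets were lower in most of them. In Myc_KO, 5 of the 10 genes were lower and 3 higher by limma with Benjamini-Hochberg adjustment over all genes at a threshold of 0.05, where 21.4% of all tested genes were lower and 24.0% higher. In Max_KO, 2 were lower and 3 higher, beside 17.4% and 22.4% of all genes. In double_KO, 3 were lower and 3 higher, beside 16.8% and 21.9%. Since the genes were selected with these changes known, nothing is read from the counts. With each library scaled to the same total, the median of all genes moved from 0.00, 0.02 and 0.02 to 0.15, 0.13 and 0.15 on the log2 scale, and the share of calls that were higher moved from 52.9%, 56.2% and 56.6% to 66.5%, 66.7% and 68.9%. No gene of the 10 that passed the threshold changed sign under that or another scaling.

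Hif1a encodes the oxygen-labile alpha subunit. It stood at 59.5 and 60.3 RPM in the controls, 119.8 and 113 in Myc_KO, 131 and 123 in Max_KO, and 129 and 116 in double_KO. All 6 knock-out libraries were above both controls, while Myc_KO lay below Max_KO, and double_KO overlapped both. The log2 changes against the control were 0.96, 1.08 and 1.03 ± 0.0882 (SE) in Myc_KO, Max_KO and double_KO, which is 1.94-, 2.11- and 2.04-fold. Arnt encodes the beta subunit, which many other transcription factors of its family also use. It stood at 48.8 and 50.6 RPM in the controls, 80.7 and 87.6 in Myc_KO, 69.8 and 88.3 in Max_KO, and 78.9 and 82.3 in double_KO. Here too no knock-out library reached down to the controls, and the log2 changes were 0.76, 0.66 and 0.70 ± 0.12 (SE). Per kilobase of exon, the control level of Hif1a was 10.2 ± 0.0956 RPM and that of Arnt 6.21 ± 0.162.

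Among the other HIF subunits, which were tested against the control, Hif3a fell in all 3 groups and Epas1 passed the test in none. Hif3a, whose product can restrain the other alpha subunits, stood at 5.98 and 6.12 RPM in the controls and, in the 6 knock-out libraries, at 1.17 to 2.03 RPM. Its log2 changes were -1.88, -1.91 and -1.95 ± 0.349 (SE), with limma adjusted p of 0.0032, 0.00371 and 0.00346. Epas1, another alpha subunit, ranged from 2.74 to 9.53 RPM, with adjusted p of 0.337, 0.909 and 0.981 in the 3 comparisons. Arnt2, another beta subunit, stood at 0 to 0.391 RPM and was below the filter.

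Of the prolyl hydroxylases, Egln3 was lower by the widest margin of the 10 genes. It encodes PHD3, an enzyme that HIF induces in many cell types. The level was 69.9 and 60.2 RPM in the controls, 1.5 and 1.71 in Myc_KO, 13.8 and 3.18 in Max_KO, and 4.86 and 3.84 in double_KO. Every knock-out library lay far below the controls, and the lowest levels, in Myc_KO, rested on 23 and 32 estimated reads against 1123 and 993 in the controls. The log2 change was -5.31 ± 0.559 (SE) in Myc_KO, -3.28 in Max_KO and -3.90 in double_KO, and the group means were 40.5-, 7.65- and 15.0-fold lower. In Max_KO the change was -4.34 without replicate 1 and -2.23 without replicate 2.

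Egln1 encodes PHD2, regarded as the main oxygen sensor of most cells. Its level was 153 and 156 RPM in the controls, 47.9 and 39.7 in Myc_KO, 129.7 and 68.7 in Max_KO, and 67.4 and 66.96 in double_KO. All knock-out libraries were below the controls, but Max_KO replicate 1 was close to them. The log2 changes were -1.83, -0.71 and -1.20 ± 0.248 (SE), and that of Max_KO was -1.17 without replicate 1 and -0.25 without replicate 2. Egln2 encodes PHD1 and is, unlike the other prolyl hydroxylase genes, not known as a HIF target. It stood at 96.05 and 101 RPM in the controls, 103 and 156 in Myc_KO, 98.7 and 118 in Max_KO, and 97.2 and 119 in double_KO. Max_KO and double_KO overlapped the controls, Myc_KO did not, and the log2 changes of 0.37, 0.13 and 0.13 ± 0.189 (SE) were within 2 standard errors of 0. In Myc_KO the change was 0.67 without replicate 1 and 0.07 without replicate 2.

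With these shifts the makeup of the prolyl hydroxylase transcripts differed between the groups. Per kilobase of exon, the 3 genes summed to 103 and 102 RPM in the controls, 50.8 and 67.4 in Myc_KO, 76.5 and 62.4 in Max_KO, and 55.3 and 62.4 in double_KO. Egln3 held 25.4% and 22.2% of that sum in the controls, 1.11% and 0.954% in Myc_KO, 6.79% and 1.92% in Max_KO, and 3.3% and 2.31% in double_KO. Egln2 held 33.2% and 35.2% in the controls and 72.7% and 82.6% in Myc_KO. Its share was 46.1% and 67.4% in Max_KO and 62.8% and 67.8% in double_KO. Egln1, at 41.3% and 42.6% the most abundant in the controls, remained so in 1 knock-out library, Max_KO replicate 1, at 47.1%. In the other 5 knock-out libraries Egln2 was the most abundant of the 3.

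**Figure D2:**
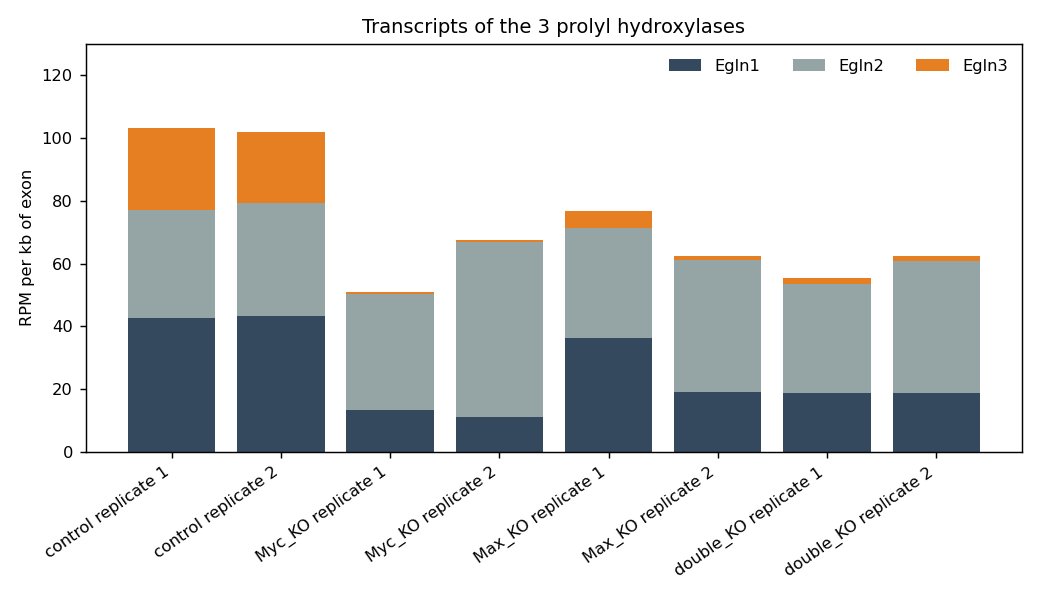
Transcript level of Egln1, Egln2 and Egln3 in RPM per kilobase of exon (vertical axis), stacked for each of the 8 libraries (horizontal axis). The sum is 50.8 to 76.5 in knock-out libraries against 103 and 102 in the controls, and the Egln3 segment shrinks from 25.4% and 22.2% to between 0.954% and 6.79%.

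Hif1an, the gene of the asparaginyl hydroxylase FIH, moved against Egln1 and Egln3. It stood at 43.3 and 44.4 RPM in the controls, 73.8 and 81.5 in Myc_KO, 61.7 and 72.3 in Max_KO, and 63.3 and 72.3 in double_KO. All 6 knock-out libraries were above the controls, by a log2 change of 0.82, 0.61 and 0.63 ± 0.115 (SE). Vhl, the part of the ubiquitin ligase that recognises hydroxylated HIF, stood at 38.03 and 39.4 RPM in the controls, 33.8 and 35.1 in Myc_KO, 45.3 and 38.4 in Max_KO, and 34.99 and 37.02 in double_KO. Its log2 changes were -0.17, 0.11 and -0.11 ± 0.114 (SE), within 2 standard errors of 0 in each group.

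Bnip3, Ankrd37 and Kdm3a report on HIF activity in many tissues. Bnip3 encodes a protein of the outer mitochondrial membrane that takes part in the removal of mitochondria by autophagy. It was the most abundant of the 10 genes per kilobase in the controls, at 83.99 ± 0.267 RPM. Its level was 191 and 189.8 RPM in the controls, 13.8 and 11.7 in Myc_KO, 138 and 48.5 in Max_KO, and 46.7 and 43.8 in double_KO. Every knock-out library was below the controls, and the Myc_KO libraries were the lowest. The log2 changes were -3.91, -1.22 and -2.07 ± 0.387 (SE), and that of Max_KO was -1.97 without replicate 1 and -0.46 without replicate 2.

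Ankrd37 encodes a small ankyrin repeat protein and is a known HIF target. Its level was 47.4 and 53.4 RPM in the controls, 4.9 and 2.51 in Myc_KO, 56.7 and 8.15 in Max_KO, and 29.5 and 8.65 in double_KO. Max_KO replicate 1 was above both controls and Max_KO replicate 2 far below them, so that this group overlapped the control. The log2 changes were -3.83, -1.23 and -1.65 ± 0.859 (SE), the widest errors of the 10 genes. In Max_KO the change was -2.62 without replicate 1 and 0.17 without replicate 2, and in double_KO it was -2.54 and -0.77. Kdm3a encodes a histone demethylase of the oxygen-dependent 2-oxoglutarate oxygenases. It stood at 113 RPM in each control, 57.6 and 61.9 in Myc_KO, 112 and 65.6 in Max_KO, and 87.6 and 66.7 in double_KO. Max_KO replicate 1 lay just below the controls and the other knock-out libraries clearly below, with log2 changes of -0.92, -0.40 and -0.56 ± 0.229 (SE). Without Max_KO replicate 1 the change in that group was -0.79, and without Max_KO replicate 2 it was -0.01.

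**Figure D3:**
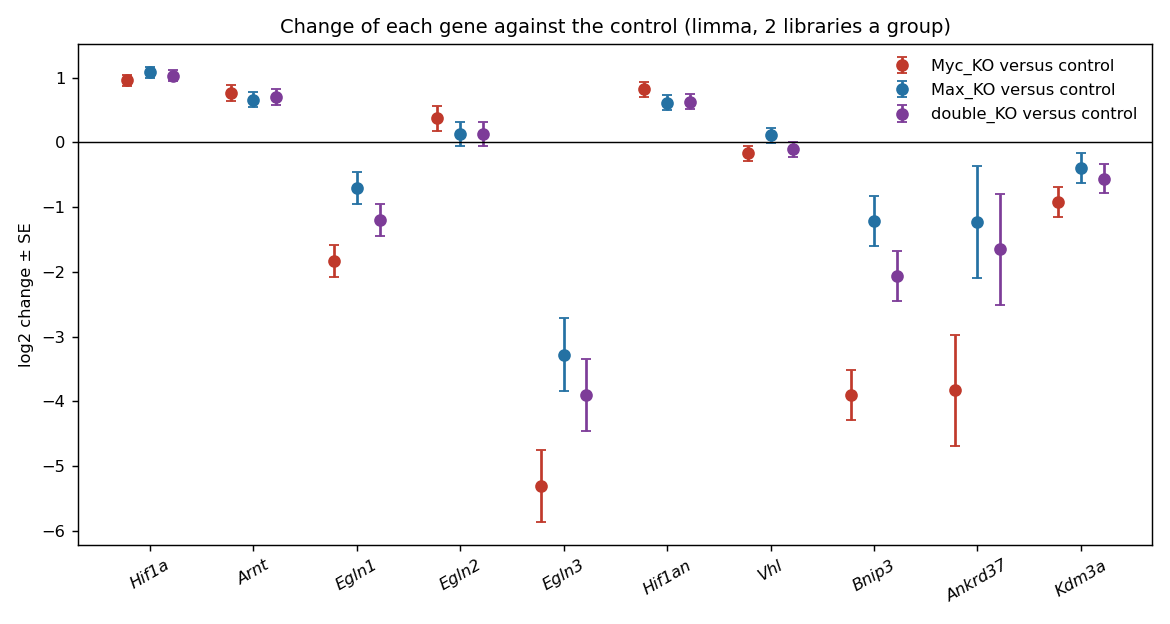
Log2 change of each of the 10 genes against the control (vertical axis) in Myc_KO, Max_KO and double_KO; points are limma estimates from 2 libraries a group and bars are ± SE. Hif1a, Arnt and Hif1an sit above 0 in each comparison, at 0.61 to 1.08, while Egln3 runs from -5.31 to -3.28.

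Per kilobase, the order of the 10 genes in the controls was Bnip3 at 83.99 RPM, Egln1 at 43.04, Egln2 at 35.1, Ankrd37 at 32.8, Egln3 at 24.4, Kdm3a at 13.8, Vhl at 12.9, Hif1a at 10.2, Hif1an at 6.64 and Arnt at 6.21. Egln2 and Ankrd37 were neighbours whose controls overlapped, with SD of 1.14 and 2.75 RPM per kilobase. In Myc_KO the order was another: Egln2 came first at 46.3, then Hif1a at 19.7, Egln1 at 12.2, Hif1an at 11.8, Vhl at 11.5, Arnt at 10.5, Kdm3a at 7.27, Bnip3 at 5.61, Ankrd37 at 2.41 and Egln3 at 0.603. The libraries of Egln1, Hif1an and Vhl overlapped there, and the SD of Egln1 was 1.6 RPM per kilobase. Bnip3 thus went from the first place to the eighth, and Egln3 from the fifth to the last.

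The 2 Max_KO libraries differed for the genes that were lower. From replicate 1 to replicate 2 the log2 difference was -2.79 for Ankrd37, -2.11 for Egln3, -1.51 for Bnip3, -0.92 for Egln1 and -0.78 for Kdm3a. A larger difference in size between the same libraries was seen for 0.531% of tested genes in the case of Ankrd37, 0.916% for Egln3 and 2.11% for Bnip3. Over all 12441 genes the median size of the difference, in either direction, was 0.19. Among other HIF targets the median difference was -0.68 for 40 other non-glycolytic targets, of which 34 were lower in replicate 2, and -0.76 for 20 glycolytic targets, of which 19 were lower. Hif1a differed by -0.09, Hif1an by 0.23 and Egln2 by 0.25. In double_KO these differences were smaller, at -0.34 for Egln3, -0.09 for Bnip3 and a median of -0.09 for the 40 other targets, whereas Ankrd37 differed by -1.77. In each knock-out group, Ankrd37, Bnip3, Egln1 and Hif1a were higher in the library whose title number is in the 30s. Arnt, Egln2 and Hif1an were lower in that library in each group, and Egln3, Kdm3a and Vhl went either way. Some of these gaps were small, as that of -0.01 for Egln1 in double_KO, and the labels do not call these numbers batches. Both controls carry numbers in the 30s, so no control with a number in the 40s was at hand.

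**Figure D4:**
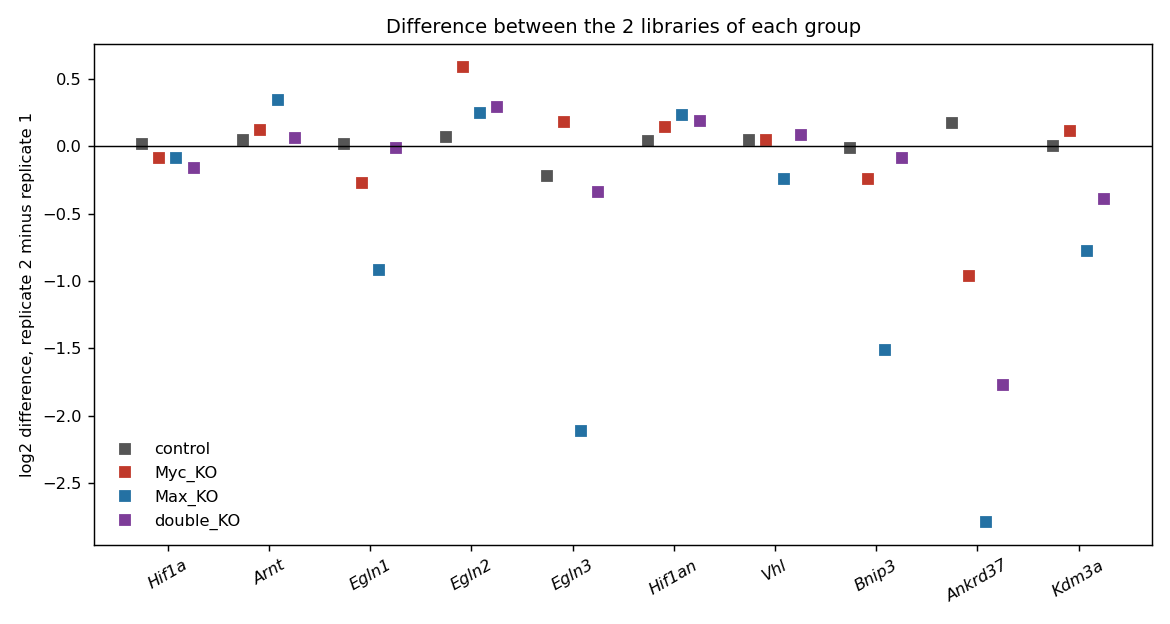
Log2 difference between the 2 libraries of each group, replicate 2 minus replicate 1 (vertical axis), for the 10 genes (horizontal axis). The controls lie between -0.22 and 0.17, while the Max_KO points of Ankrd37, Egln3 and Bnip3 lie at -2.79, -2.11 and -1.51.

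The knock-out groups were then set against each other. The genes were chosen with the levels of all groups known, so these differences too are a description. Between Max_KO and Myc_KO, Bnip3 was 6.45-fold higher in Max_KO, a log2 difference of 2.69 ± 0.387 (SE), and Egln1 was 2.16-fold higher, by 1.11 ± 0.248 (SE). The Max_KO libraries of both genes lay above the Myc_KO libraries. Ankrd37 was higher by 2.61 ± 0.859 (SE), Egln3 by 2.03 ± 0.559 and Kdm3a by 0.52 ± 0.229. Hif1a, Arnt and Hif1an differed by 0.12, -0.10 and -0.22. At limma's adjusted threshold 2 of the 10, Bnip3 and Egln1, were higher in Max_KO, beside 2.44% of all genes, and 0 were lower, beside 1.69%, and nothing is read from these counts. Over 25 alternatives Bnip3 fell short of that threshold in 6 and Egln1 in 15, the fit without the 2 libraries whose title and description differ among them, while Egln3, Ankrd37 and Kdm3a came past it in 3, 3 and 2. The size of each difference depended on the Max_KO library. Without Max_KO replicate 1 it was 1.93 for Bnip3, 0.66 for Egln1, 1.21 for Ankrd37, 0.98 for Egln3 and 0.13 for Kdm3a. Without Max_KO replicate 2 it was 3.44 for Bnip3, 1.57 for Egln1, 4.0 for Ankrd37, 3.09 for Egln3 and 0.91 for Kdm3a.

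Between double_KO and Myc_KO, 0 of the 10 were past limma's adjusted threshold in either direction, beside 0.418% of all genes higher and 0.0402% lower. The largest log2 differences were those of Bnip3, higher in double_KO by 1.83 ± 0.387 (SE), Ankrd37 by 2.18, Egln3 by 1.41 and Egln1 by 0.62. Over the 25 alternatives Bnip3 came past the threshold in 5, and its difference ran from -0.17 to 2.59. Between double_KO and Max_KO, 0 of the 10 were past the threshold, beside 0.0322% of all genes higher and 0.00804% lower. The log2 differences there ran from -0.86 for Bnip3 to 0.04 for Arnt. They too depended on the Max_KO library, since that of Bnip3 was -0.10 without Max_KO replicate 1 and -1.61 without Max_KO replicate 2. With only the libraries numbered in the 30s, each knock-out group held 1 library. That of double_KO has a title and description that differ. Between these single libraries, Bnip3 was at 46.7 RPM in double_KO against 138 in Max_KO, and Egln1 at 67.4 against 129.7. Egln3 was at 4.86 against 13.8 and Ankrd37 at 29.5 against 56.7, while Arnt and Hif1an were higher in double_KO. A missed threshold with 2 libraries a group does not show that the levels were alike.

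As a description, the change of the double knock-out was set against the sum of the changes of the single ones, as double_KO minus Myc_KO minus Max_KO plus control on the log2 scale. Of the 10 genes, 3 were below and 3 above additivity at the adjusted threshold, where 15.0% of all genes were below and 12.4% above. In each case the 2 single knock-outs had moved the gene the same way and the double knock-out had moved it less than their sum. The control libraries enter all 3 comparisons.

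The other genes of the pathway came from lists chosen by function with earlier results of these data known. Each gene was tested against the control, but the adjusted p-values and counts make no allowance for that choice. Among the other HIF targets outside glycolysis, 40 of 46 were tested. In Myc_KO 28 of the 40 fell and 4 rose, beside 21.4% and 24.0% of all genes. In Max_KO 21 fell and 2 rose, beside 17.4% and 22.4%, and in double_KO 23 fell and 2 rose, beside 16.8% and 21.9%. Their medians were -1.38, -0.96 and -1.17, against 0.00, 0.02 and 0.02 for all genes. Mif, a cytokine gene, stood at 804 and 716 RPM in the controls, 96.98 and 109 in Myc_KO, 417 and 259 in Max_KO, and 253 and 266 in double_KO. It fell by 2.89, 1.21 and 1.55 on the log2 scale (SE 0.192, limma adjusted p of 5.53e-05, 0.00204 and 0.000696). Pdk1, whose kinase restrains the use of pyruvate in the mitochondrion, fell by 2.27, 0.98 and 1.28 (SE 0.165).

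Bnip3l, the paralog of Bnip3 with a like role in the removal of mitochondria, fell from 244 and 245 RPM in the controls to 51.5 and 53.4 in Myc_KO, 127 and 67.6 in Max_KO, and 52.8 and 68.7 in double_KO. Its log2 changes were -2.22, -1.40 and -2.02 ± 0.254 (SE), with adjusted p of 0.000315, 0.00358 and 0.000734. Ddit4, an inhibitor of mTORC1, fell by 2.58, 1.74 and 2.19 (SE 0.291), and Mxi1, which encodes a partner of Max that competes with Myc, fell by 2.25, 1.01 and 1.48 (SE 0.239). In Max_KO the call of Mxi1 was lost without control replicate 2, with an adjusted p of 0.0846, and without Max_KO replicate 2, with 0.0582. Ccng2, a cyclin gene, had the lowest limma adjusted p of the list in Max_KO and double_KO, at 0.000495 and 0.000653. Its changes were -1.16, -1.94 and -1.83 ± 0.223 (SE). The genes that rose were Rsbn1 and Kdm4c in all 3 comparisons, and Bhlhe40 and Cxcr4 in Myc_KO. Kdm4c, a demethylase gene like Kdm3a, rose by 0.54, 0.44 and 0.46 ± 0.122 (SE), with adjusted p of 0.00797, 0.0227 and 0.0187.

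All 20 glycolytic HIF targets were tested. In Myc_KO 19 fell, in Max_KO 14 and in double_KO 17, beside 21.4%, 17.4% and 16.8% of all genes, and 0 rose in limma's test; their medians were -1.98, -0.88 and -1.19. Aldoc fell by 3.08, 0.90 and 1.73 on the log2 scale (SE 0.207, adjusted p of 5.53e-05, 0.0103 and 0.000604), and in Max_KO its call was lost without control replicate 2, with 0.0742. In Max_KO the count of glycolytic targets that fell was 5 to 18 and that of the other targets 10 to 27 when 1 library was left out, the lower ends without control replicate 2. Without control replicate 1 the counts were 7 and 11, and without Max_KO replicate 2 the other targets numbered 11. Between Max_KO and Myc_KO, 6 of the 40 other targets and 11 of the 20 glycolytic targets were higher in Max_KO, beside 2.44% of all genes, and 0 were lower, beside 1.69%. Under alternative settings the counts of higher targets ran from 0 to 23 and from 0 to 18, and up to 4 of the other targets were lower. The 6 were Ak4, Mif, Mxi1, P4ha2, Pdk1 and Vldlr. Between double_KO and Myc_KO, where 0.418% of all genes were higher, Mif was higher among the 40, and Aldoc and Tpi1 among the 20. Most genes of these target lists thus fell in Myc_KO, and Egln3, Bnip3, Ankrd37 and Kdm3a were lower there. The lists and these genes were chosen with earlier results known, so neither is taken as support for the other.

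Of 10 genes of the VHL ubiquitin ligase and its partners, 3 fell and 1 rose in Myc_KO, and 2 fell and 0 rose in both Max_KO and double_KO. The shares that fell were near those of all genes, which were 21.4%, 17.4% and 16.8%. The shares that rose were below those of all genes, which were 24.0%, 22.4% and 21.9%, in a list of only 10 genes. Elob, which bridges VHL to the cullin, fell from 146 and 127 RPM in the controls to 94.5 and 86.6 in Myc_KO, 106 in each Max_KO library, and 102 and 100.4 in double_KO, by 0.59, 0.37 and 0.43 (SE 0.0935). Rbx1, the RING subunit, fell by 0.50, 0.39 and 0.44 (SE 0.0983). In Max_KO the call of Elob was lost without control replicate 1, with an adjusted p of 0.12, and without Max_KO replicate 2, with 0.062. That of Rbx1 was lost there without control replicate 1, with 0.118, and without Max_KO replicate 1, with 0.0733. In double_KO both were lost without control replicate 1, with 0.0724 and 0.0822, and Rbx1 also without double_KO replicate 1, with 0.0569, and without the 2 libraries whose title and description differ, with 0.0599. Usp33, a deubiquitinase gene, rose by 0.53 ± 0.15 (SE) in Myc_KO, with an adjusted p of 0.021, and had adjusted p of 0.0623 and 0.0688 in the other groups. Its call was lost without control replicate 1, control replicate 2 or Myc_KO replicate 1, with 0.0991, 0.0847 and 0.111. The medians of the list were 0.03, 0.05 and 0.03, near those of all genes.

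Of 16 regulators of HIF and its hydroxylases, 15 were tested. In Myc_KO 4 fell and 6 rose, beside 21.4% and 24.0% of all genes, and in both Max_KO and double_KO 2 fell and 5 rose, beside 17.4% and 22.4% and beside 16.8% and 21.9%. Rack1, a ribosomal scaffold that can also send HIF1A to degradation, fell from 3066 and 2945 RPM to 1441 and 1279 in Myc_KO, 1588 and 1626 in Max_KO, and 1588 and 1553 in double_KO, with adjusted p of 6.88e-05, 0.000275 and 0.000252. Ncoa1, a coactivator gene, rose by 1.49, 1.17 and 1.13 ± 0.114 (SE), and Usp9x, a deubiquitinase gene, by 1.05, 0.77 and 0.87 ± 0.0918. Of 40 other 2-oxoglutarate oxygenases, 38 were tested. Here 5 fell and 12 rose in Myc_KO, and 4 fell and 11 rose in both Max_KO and double_KO, with medians of 0.04, 0.08 and 0.10, and the shares of all genes just given apply here too. Kdm3b, a paralog of Kdm3a, rose by 0.66, 0.54 and 0.56 ± 0.0718 (SE), with adjusted p of 0.000262, 0.000908 and 0.000791. Phf8 rose by 0.87, 0.88 and 0.87 ± 0.098 (SE), and Fto, an RNA demethylase gene, by 0.48, 0.84 and 0.65 ± 0.0992.

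**Figure D5:**
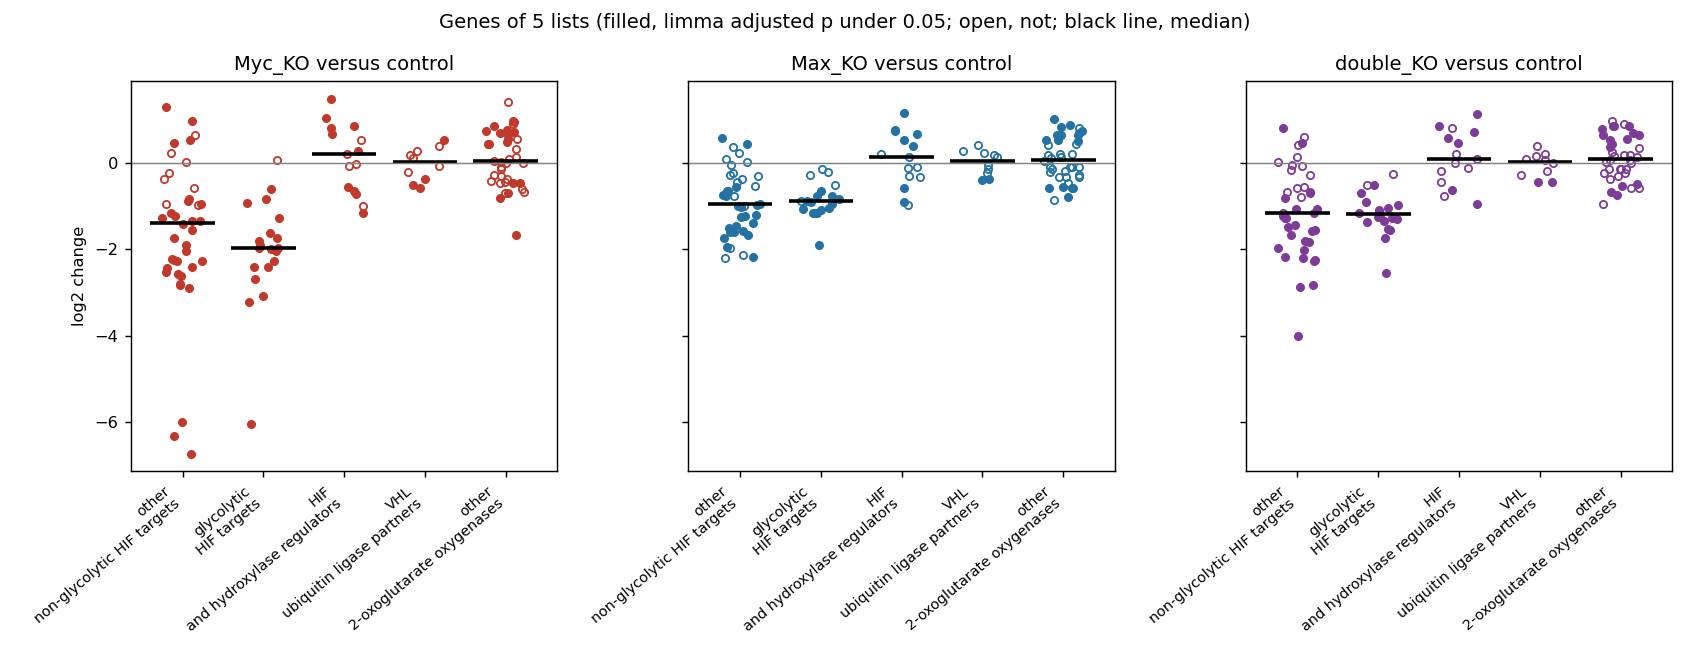
Log2 change against the control (vertical axis) of the tested genes of 5 lists (horizontal axis) in Myc_KO, Max_KO and double_KO; filled points have a limma adjusted p under 0.05, open points do not, and black lines are medians. The medians of the 2 target lists lie at -0.88 to -1.98, and those of the other 3 lists at 0.03 to 0.21.

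Across the 8 libraries, the 5 tested genes whose log2 levels were most like those of Egln3 were Commd4 and Aplp1, each with Pearson's r of 0.994, Gorasp1 and Aldoa, each with 0.993, and Nt5c with 0.992. Of the other 9 genes, Egln1 had r of 0.96 with Egln3, Bnip3 0.936, Kdm3a 0.924 and Ankrd37 0.868. Hif1an had -0.974, Arnt -0.959 and Hif1a -0.831. The points share their groups and the same 2 controls, so these values restate the difference between control and knock-out libraries and serve as a description of likeness. Gorasp1, which encodes a Golgi stacking protein, stood at 101 and 98.6 RPM in the controls and, in knock-out libraries, at 22.01 to 56.6.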

How the data were processed

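Transcripts of 8 libraries of activated mouse splenic B cells were analysed. The authors deposited log2 values for 15681 genes. The values themselves show estimated reads plus 0.5, scaled to an effective library size and put on the log2 scale. RSEM 1.2.3, cutadapt and CASAVA 1.8 stand in the submitters' processing notes, with the build GRCm38. What tool made the log2 values, what annotation and strand setting it used and whether genes were filtered is not given in the sources used here. Setting each library's minimum to 0 reads gave RPM. RPM per kilobase used the merged exons of GENCODE vM21, and gene symbols came from it.

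Genes that reached 1 RPM in at least 2 libraries were fitted with limma 3.58.1 in R 4.3.3 (4 group means, mean-variance trend, 4 residual and 4.2 prior degrees of freedom, two-sided, Benjamini-Hochberg over all genes), tested on simulated data. A count test was not run, since deposited values are log2 values. The design assumed that values might need log2(value + 1); they were used as deposited.

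Groups follow the titles, which are the column names. Same-numbered control and Max_KO libraries had deviations with r = -0.108, so the numbers of the descriptions were not taken as pairs. Python 3.11.15 with pandas 2.3.3, numpy 2.4.6 and matplotlib 3.10.9 made the summaries and figures. The 10 genes and all lists were chosen with earlier results of these data known. Named are the 10 genes, of each other list up to 3 called genes with the lowest adjusted p in each comparison with the control, all other HIF subunits, the 5 genes most like Egln3, and the first markers of each cell type. Rsbn1, Kdm4c, Bhlhe40, Cxcr4, Ak4, P4ha2, Vldlr, Tpi1 and the markers Ms4a1, Pax5, Cd8a, Lck, Gzma, Adgre1, Cd68 and Xbp1 were named after their values were seen. Alternatives were other scalings, pseudocounts, filters, groupings, fits and thresholds, terms for the title-number series and replicate blocks, and each library left out. Ero1a was matched as Ero1l.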

Additional observations from a re-analysis of the deposited data

Results flagged for a closer look

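For 6 of the 10 genes the change of the double knock-out differed from the sum of the single ones by limma's adjusted threshold, as double_KO minus Myc_KO minus Max_KO plus control on the log2 scale. Of all tested genes 15.0% were below that sum and 12.4% above it, and nothing is read from the count. For the genes that were higher in knock-out libraries the difference was negative, at -1.01 ± 0.125 (SE) for Hif1a, -0.72 ± 0.169 for Arnt and -0.80 ± 0.163 for Hif1an. For genes that were lower it was positive, at 4.70 ± 0.791 (SE) for Egln3, 3.05 ± 0.547 for Bnip3 and 1.34 ± 0.35 for Egln1. Without the 2 libraries whose title and description differ, Myc_KO and double_KO held 1 library each, so no threshold is read there. In that fit all 6 differences kept their sign, and all but that of Hif1a were smaller in size. Of 24 alternatives, Egln1 fell short in 10, Arnt in 5, Hif1an in 3, Egln3 and Bnip3 in 1 each and Hif1a in 0. The genes were chosen with these levels known and the controls enter every term. These values are therefore a description, and the counts over the alternatives are not read as a test.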

How the results depend on the processing

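Counts of called genes among the 10, the 40 other targets and the 20 glycolytic targets depended on the setting as follows. No called change of sign occurred, and the causes were not tested. With only the libraries numbered in the 30s, each knock-out group held 1 library, so nothing is read from the counts of that setting. In Myc_KO against control, 3 of the 10 were lower with groups from the descriptions, against 5. In Max_KO, 1 was lower with groups from the descriptions, without the 2 disputed libraries, without trend, with robust eBayes, at a threshold of 0.01 and with only the 2 groups compared, against 2. In double_KO, 5 were lower with groups from the descriptions, with the libraries numbered in the 30s and with only the 2 groups, against 3. Between Max_KO and Myc_KO, 2 were higher; the count was 1 with same-total scaling, with the replicate block and with robust eBayes, 4 with the number series as a term, 5 with the 30s and 0 with groups from the descriptions, without the disputed libraries, without trend, at 0.01 and with the 2 groups. Between double_KO and Myc_KO, 0 became 2 with the series term, 5 with the 30s and 1 with the 2 groups. Between double_KO and Max_KO, 0 lower became 4 with the 30s. In the interaction, 3 below additivity became 1 without the disputed libraries and 1 with the replicate block, and 3 above became 0 with groups from the descriptions and 5 with the 30s.

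In Max_KO against control, 11 of the other targets fell at 0.01, against 21, and of the glycolytic targets 5 with groups from the descriptions and 6 at 0.01, against 14. Between Max_KO and Myc_KO, the 6 other targets became 0 with groups from the descriptions, 3 without the disputed libraries, 2 with the replicate block, 23 with the 30s, 1 without trend, 2 at 0.01 and 0 with the 2 groups; the 11 glycolytic targets became 0, 4, 7, 18, 2, 2 and 1. Between double_KO and Myc_KO, the single other target became 4 with the series term, 7 with the 30s and 3 with the 2 groups, and the 2 glycolytic targets 9, 15 and 9, and 1 with robust eBayes; both became 0 with groups from the descriptions, without the disputed libraries, with either replicate block, without trend and at 0.01.

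With 1 library left out, the 10 genes gave 1 to 5 lower in Max_KO and 3 to 5 in double_KO, 0 to 5 higher between Max_KO and Myc_KO, 0 to 3 between double_KO and Myc_KO, 0 to 1 lower between double_KO and Max_KO and 2 to 5 above additivity. Other targets gave 10 to 27 lower in Max_KO, 2 to 17 higher between Max_KO and Myc_KO and 0 to 4 between double_KO and Myc_KO; glycolytic targets gave 5 to 18, 2 to 18 and 0 to 13. A group with 1 library left was assumed to vary like the others. A crossed replicate block, added after seeing the data because r was below -0.1, left 2 members higher between Max_KO and Myc_KO. With 2 libraries a group, differences of 1 on the log2 scale may be missed.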
